A study of Mus musculus with 5 samples.

Results

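Whole-colon RNA of wild-type C57BL/B6 mice was measured on 5 single-colour microarrays, and the epithelial antimicrobial and oxidase genes are described here as a set of 10 genes chosen by name: Reg3b, Reg3g, Retnlb, Ang4, Lyz1, Nos2, Duox2, Duoxa2, Pla2g2a and Lypd8. The study asked which genes respond to IL-11 in the colon. Of the arrays, 2 held control mice and 3 held mice taken 3 hr after an intravenous injection of NT-3N, an IL-11 receptor agonist made from modified human IL-11. The groups are called Control and NT-3N below. The injected mice were 8 weeks old; no separate age is given for the Control mice, which were untreated, so the injection and the agonist cannot be told apart. The dose carries different units in the series record and in the methods and is not used.

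Of the 10 genes, 8 were matched to a probe on the array through the accession in the scanner files, each to 1 probe. The other genes, Duox2 and Pla2g2a, were not named by this match and have no value here. Each of the 8 probes exceeded background clearly on all 5 arrays, and all 8 passed the filter on dim probes, which kept 32917 features of the array, 17942 of them with a gene symbol. In the RefSeq table of assembly GRCm38.p6, which is built on the C57BL/6J strain, 9 of the 10 genes were protein coding and Pla2g2a was a transcribed pseudogene.

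The colonic epithelium is known to hold bacteria at a distance with secreted proteins and with oxidants. Reg3b and Reg3g are C-type lectins that bind bacterial cell walls, Retnlb is a goblet cell protein, Ang4 a ribonuclease of the angiogenin family, Lyz1 the lysozyme of Paneth cells, Pla2g2a a secreted phospholipase and Lypd8 a surface protein of colonocytes that binds flagella. Duox2 with its maturation factor Duoxa2 makes hydrogen peroxide at the cell surface, and Nos2 makes nitric oxide. Reg3b and Reg3g are known targets of STAT3, the factor that IL-11, IL-6 and IL-22 activate in epithelial cells.

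RefSeq promoter windows were found for 7 of the 10 genes, with 8 windows in all since Lypd8 had 2. The 250 bases before the annotated start are printed for Reg3b and Reg3g, whose signal was higher on every NT-3N array, and for Ang4, which varied most of the 8 measured genes, with its relative Ang6, one of the genes most like it over the arrays. Each reads 5′ to 3′ on the strand of its gene. Capitals mark TTCNNNGAA, the palindrome that STAT factors are known to bind, and TATAAA, the TATA box, both searched on both strands; the motifs did not overlap in any window shown.
Reg3b, chr6:78370635-78370884, plus strand, GRCm38.p6: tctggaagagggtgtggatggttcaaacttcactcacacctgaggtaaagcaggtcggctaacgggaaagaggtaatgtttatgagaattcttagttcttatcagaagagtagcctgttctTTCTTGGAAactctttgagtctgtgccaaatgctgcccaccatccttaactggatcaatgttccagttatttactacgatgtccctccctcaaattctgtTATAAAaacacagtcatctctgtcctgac
Reg3g, chr6:78468875-78469124, minus strand, GRCm38.p6: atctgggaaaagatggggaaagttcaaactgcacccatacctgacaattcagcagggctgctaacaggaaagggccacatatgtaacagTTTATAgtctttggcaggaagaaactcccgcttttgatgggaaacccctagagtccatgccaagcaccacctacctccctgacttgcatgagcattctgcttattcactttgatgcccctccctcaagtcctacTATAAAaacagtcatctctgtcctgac
Ang4, chr14:51773591-51773840, minus strand, GRCm38.p6: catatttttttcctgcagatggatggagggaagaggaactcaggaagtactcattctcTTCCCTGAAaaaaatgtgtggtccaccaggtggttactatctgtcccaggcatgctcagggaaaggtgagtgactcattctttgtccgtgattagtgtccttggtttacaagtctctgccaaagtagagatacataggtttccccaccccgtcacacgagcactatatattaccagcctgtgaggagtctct
Ang6, chr14:44006419-44006668, minus strand, GRCm38.p6: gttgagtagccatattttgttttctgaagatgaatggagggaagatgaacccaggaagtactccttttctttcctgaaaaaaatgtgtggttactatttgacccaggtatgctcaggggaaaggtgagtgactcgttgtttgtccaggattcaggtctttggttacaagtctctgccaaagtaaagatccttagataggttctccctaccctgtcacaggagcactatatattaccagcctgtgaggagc

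The Reg3b and Reg3g windows were 68.9% identical over 257 aligned columns. TTCNNNGAA occurred once in Reg3b as TTCTTGGAA, beginning 129 bases before the start, and the letters aligned to it in Reg3g were TGATGGGAA, which do not hold the motif. Both windows had TATAAA close to the start, at 29 bases in Reg3b and 27 bases in Reg3g, and Reg3g had it once more on the other strand at 161 bases. The Ang4 and Ang6 windows were 78.7% identical over 268 aligned columns, and Ang4 alone held TTCNNNGAA, as TTCCCTGAA at 192 bases. Of the 8 windows of the set, 2 held TTCNNNGAA and 3 held TATAAA, beside 7.02% and 12.4% of 32851 RefSeq promoter windows of the same length. These matches describe the letters of a window and do not show that a factor binds there.

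The arrays shared 1 slide and 1 scan time, and no spot was saturated. Correlations between arrays, taken across features that are not independent replicates, ranged from 0.98 to 0.992. The labelled tissue bore its markers: all 12 epithelial and all 8 goblet cell markers of the lists used were well above background on every array. In whole colon, fewer cells of a type and less RNA per cell cannot be told apart. Unless said otherwise, values are log2 signals after quantile normalization, and differences are NT-3N minus Control on that scale; the summed signal of a marker list is linear, in units of 1000.

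**Figure D1:**
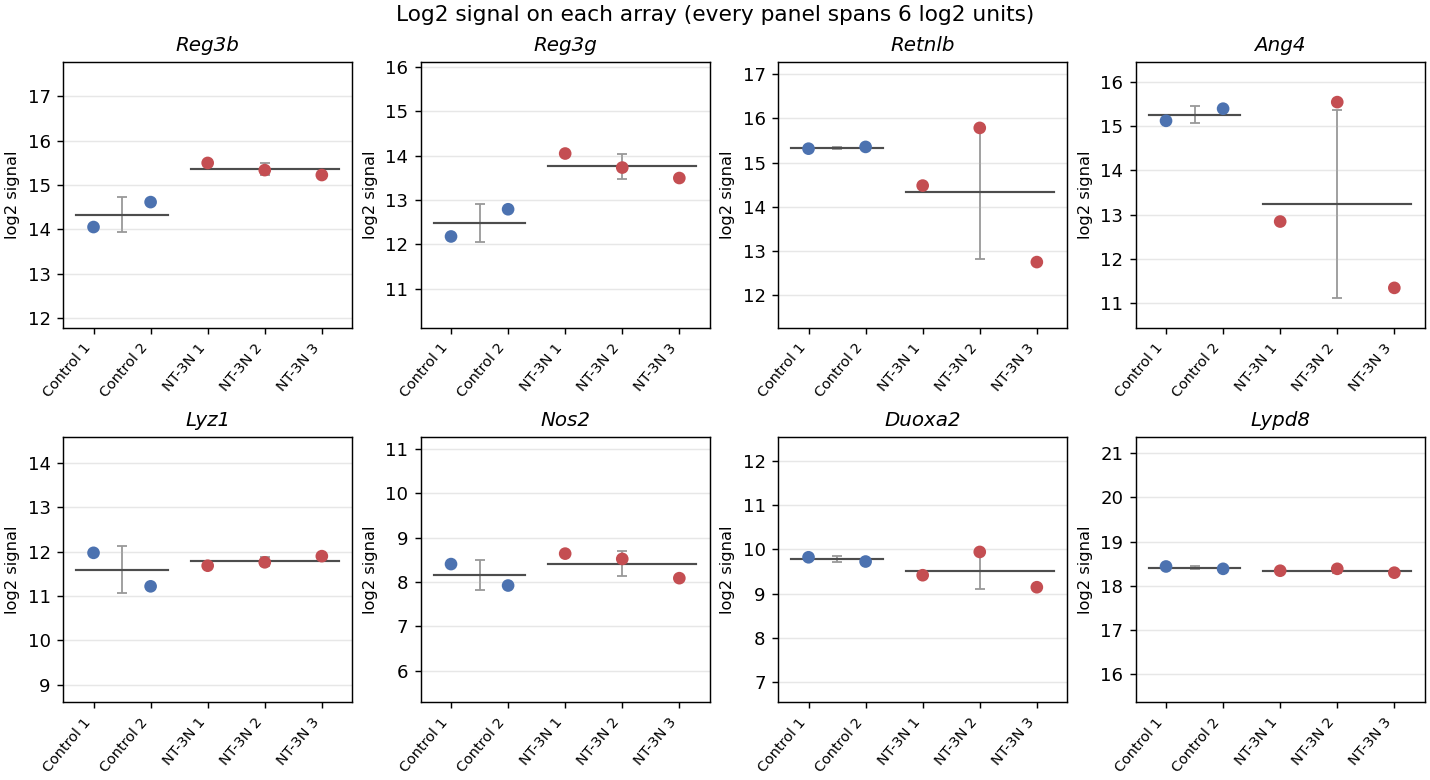
Log2 signal of the 8 measured genes on each array, with Control in blue and NT-3N in red; lines are group means, bars are SD (n = 2 and n = 3), and every panel spans 6 log2 units. The 3 NT-3N points of Reg3b and Reg3g sit above both Control points, whereas Ang4 and Retnlb are low on NT-3N replicates 1 and 3 only.

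The bactericidal lectins were the genes with the clearest difference between the groups. Reg3b, which acts on Gram-negative bacteria, had a log2 signal of 14.05 and 14.62 on the Control arrays and of 15.50, 15.34 and 15.23 on the NT-3N arrays. The groups did not overlap, and the NT-3N arrays lay within 0.27 of each other. Its log2 fold change was 1.02 (SE 0.17, 95% interval 0.61 to 1.43), a 2.03-fold difference, at a limma p of 0.00082 unadjusted and 0.14 adjusted. By p, Reg3b stood at rank 195 of 32917 features.

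Reg3g, which acts on Gram-positive bacteria, had a log2 signal of 12.18 and 12.79 on the Control arrays and of 14.05, 13.73 and 13.50 on the NT-3N arrays. The groups did not overlap here either. Both genes were lowest on Control replicate 1 and highest on NT-3N replicate 1, and they gave the same order of all 5 arrays. The log2 fold change of Reg3g was 1.27 (SE 0.22, 95% interval 0.74 to 1.81), a 2.42-fold difference, at a limma p of 0.0010 unadjusted and 0.15 adjusted and at rank 219. Neither gene passed an adjusted p of 0.05.

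The size of these differences leaned on the Control arrays. Without Control replicate 1 the log2 fold changes were 0.74 for Reg3b and 0.97 for Reg3g, both below a 2-fold difference. Without Control replicate 2 they were 1.31 and 1.58, and Reg3b then had a limma adjusted p of 0.028, the only limma call of the set among all alternatives; the others gave limma values up to 0.58 for Reg3b and from 0.061 to 0.57 for Reg3g. Reg3b, which lay close to 2-fold, had a log2 fold change of 0.95 without NT-3N replicate 1 and of 0.99 with array weights. In each of the 18 alternatives both genes had an unadjusted p under 0.05, at most 0.0056 for Reg3b and 0.0051 for Reg3g.

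Their relatives Reg3a and Reg3d were dim, and the groups overlapped for both. Reg3a had a log2 signal of 5.17 and 6.86 in Control and of 6.45, 5.40 and 5.59 in NT-3N, a log2 fold change of -0.20 (limma adjusted p = 0.92). Reg3d had 6.58 and 5.14 in Control and 6.19, 5.30 and 5.28 in NT-3N, a log2 fold change of -0.27 (limma adjusted p = 0.88). The 95% intervals, from -1.52 to 1.11 for Reg3a and from -1.44 to 0.90 for Reg3d, were too wide to compare these genes with Reg3b and Reg3g.

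**Figure D2:**
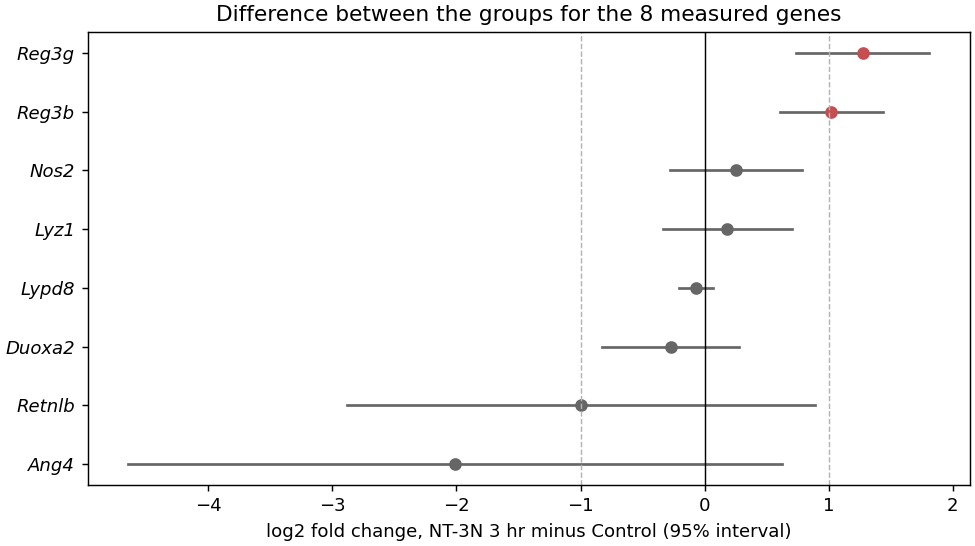
Log2 fold change of the 8 measured genes, NT-3N minus Control, with 95% intervals from limma; red points have an unadjusted p under 0.05 and dashed lines mark 2-fold. The intervals of Reg3b and Reg3g lie above 0, and those of Ang4 and Retnlb are the widest.

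Ang4 and Retnlb, a ribonuclease and a goblet cell protein that are both known to be induced by helminths and by IL-13, varied most, and they did so among the NT-3N mice. Ang4 had a log2 signal of 15.12 and 15.39 in Control and of 12.84, 15.54 and 11.34 in NT-3N. NT-3N replicates 1 and 3 lay far below Control, and NT-3N replicate 2 lay above both Control arrays. The range of Ang4 over the arrays was 4.19, and 0.465% of features had a larger one, beside a median of 0.49 over all features. Its log2 fold change was -2.01 (SE 1.09, 95% interval -4.65 to 0.63; limma adjusted p = 0.62).

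Retnlb had a log2 signal of 15.31 and 15.35 in Control and of 14.48, 15.78 and 12.75 in NT-3N. The order of the NT-3N arrays was that of Ang4, with replicate 2 above both Control arrays and replicate 3 lowest. Its range was 3.03, exceeded by 1.06% of features, and its log2 fold change was -0.99 (SE 0.78, 95% interval -2.88 to 0.89; limma adjusted p = 0.72). The standard deviation over the NT-3N arrays was 2.12 for Ang4 and 1.52 for Retnlb, against a median of 0.17 over all features.

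The size of both differences turned on single arrays. Without NT-3N replicate 2 the log2 fold change was -3.17 for Ang4 and -1.72 for Retnlb, with unadjusted p of 0.00065 and 0.018 and limma adjusted p of 0.22 and 0.64. Without NT-3N replicate 3 it was -1.06 for Ang4 and -0.20 for Retnlb. The differences between the groups were therefore within the spread of the NT-3N arrays for both genes.

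Over the 5 arrays, the genes with a pattern most like that of Ang4 were Itln1, Ang6 and Ang2, with a root mean square difference from its centred log2 values of 0.21, 0.32 and 0.33; 17938 genes were ranked. Itln1 encodes intelectin, a lectin that binds microbial sugars, and Ang6 and Ang2 are ribonucleases of the angiogenin family. Itln1 had a log2 signal of 12.27 and 12.32 in Control and of 10.31, 12.65 and 8.21 in NT-3N. Ang6 had 15.42 and 15.87 in Control and 12.82, 16.10 and 12.29 in NT-3N. In each of the 3 genes NT-3N replicate 3 was lowest, replicate 1 came next and replicate 2 was highest of all arrays.

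Retnlb stood at rank 6 of these 17938 genes and Duoxa2 at rank 236, while the other members stood between ranks 4631 and 17592. Ang, a further angiogenin, had a log2 signal of 12.66 and 13.08 in Control and of 11.08, 13.06 and 10.70 in NT-3N. These genes share the 5 RNA samples, and close relatives of the angiogenin family can share RNA on a probe, which was not tested. With 5 arrays this likeness is a description.

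**Figure D3:**
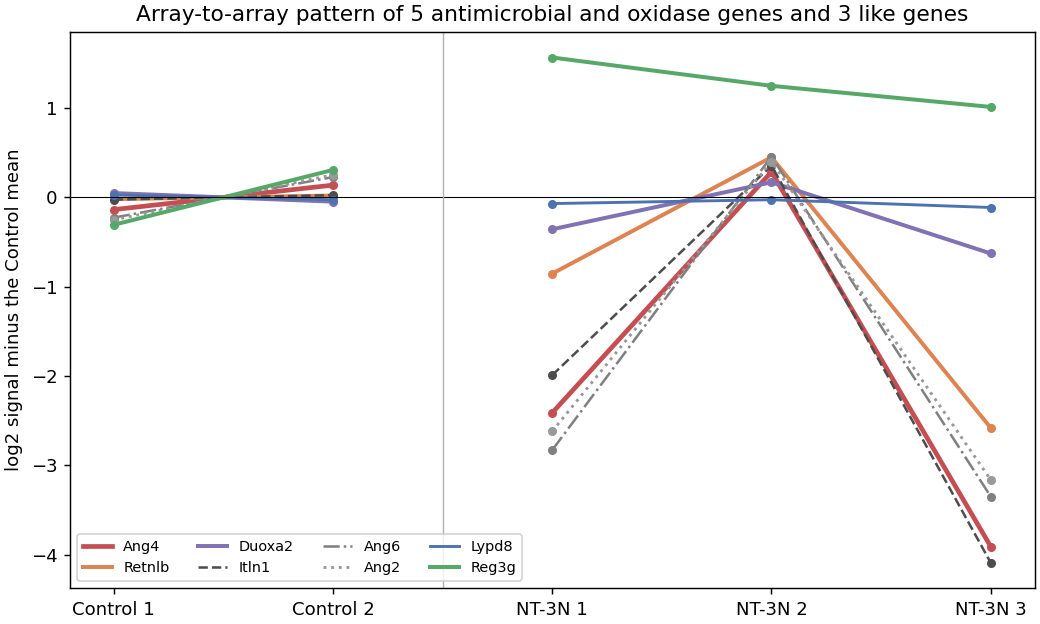
Log2 signal minus the Control mean on each array for Ang4, Retnlb, Duoxa2, Lypd8 and Reg3g (solid lines) and for Itln1, Ang6 and Ang2 (broken lines); lines only join the points of a gene within a group, since replicates have no order. Ang4 and the 3 like genes lie far below the Control mean on NT-3N replicates 1 and 3 and above it on replicate 2. Retnlb lies on the same sides of its Control mean, but far below it only on replicate 3. Reg3g is above its Control mean on all 3 NT-3N arrays.

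Markers of secretory cells moved with Ang4 in part. The summed signal of the 4 tested Paneth cell markers, most of it from Mptx2, was 124 and 126 units in Control and 52.7, 133 and 41.7 units in NT-3N, so it was low on the same arrays. Mptx2 shared this pattern, as did Itln1, which was picked above for its likeness to Ang4. The other 2 tested markers, much dimmer, did not, and the defensin gene among them was highest on NT-3N replicate 1 (log2 signal 9.51). Lyz1, the lysozyme of Paneth cells, did not share it either, with 11.68, 11.76 and 11.90 in NT-3N. The log2 signal of Mptx2, a pentraxin of the intestinal epithelium, was 16.85 and 16.88 in Control and 15.63, 16.95 and 15.33 in NT-3N. The 8 goblet cell markers summed to 1090 and 1180 units in Control and to 800, 1190 and 1010 units in NT-3N. All 8 had a negative log2 fold change, from -0.76 to -0.03 with a median of -0.29. Limma called 0 of them at an adjusted p under 0.05 and 2 as lower at an unadjusted p under 0.05, beside 4.67% of all features. The 12 epithelial markers summed to 1190 and 1100 units in Control and to 1220, 1140 and 1050 units in NT-3N, a narrower spread than that of Ang4.

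The 5 tested distal hindgut position genes, Hox genes led by Hoxb13, summed to 38.0 and 28.6 units in Control and to 25.5, 45.3 and 44.6 units in NT-3N. NT-3N replicate 1 was the lowest and replicate 3 was among the highest. The 7 smooth muscle markers summed to 469 and 485 units in Control and to 340, 431 and 400 units in NT-3N, again lowest on replicate 1. The part of cell makeup and of colon segment in the values of Ang4 and Retnlb was not tested.

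Lyz1 and Lypd8, which encode lysozyme and the flagella-binding protein, showed no difference beyond the spread of the arrays. Lyz1 had a log2 signal of 11.98 and 11.22 in Control and of 11.68, 11.76 and 11.90 in NT-3N, with all 3 NT-3N arrays between the Control arrays. Its log2 fold change was 0.18 (95% interval -0.34 to 0.71; limma adjusted p = 0.81), and it was -0.19 without Control replicate 2. Its close relative Lyz2, the lysozyme of macrophages, had 8.94 and 8.39 in Control and 8.61, 8.91 and 8.99 in NT-3N. Control replicate 2 was the lowest array for both lysozymes, and the 6 B cell markers summed to 1.09 units there, beside 4.43 to 5.34 units on the other arrays; the part of B cells was not tested. The lysozymes' transcripts are much alike, and whether a probe takes up RNA of the other gene was not tested.

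Lypd8 lay near the top of the signal range of the arrays. Its log2 signal was 18.44 and 18.39 in Control and 18.34, 18.39 and 18.30 in NT-3N, and Control replicate 2 lay above NT-3N replicate 2 only beyond the third decimal. The log2 fold change was -0.07 (SE 0.055, 95% interval -0.20 to 0.06; limma adjusted p = 0.73). Quantile normalization hands the brightest probes nearly fixed values, and with 75th percentile scaling the log2 fold change was -0.14 (SE 0.13).

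The oxidant-producing enzymes did not pass either. Nos2, the inducible nitric oxide synthase, had a log2 signal of 8.41 and 7.92 in Control and of 8.64, 8.52 and 8.09 in NT-3N. The groups overlapped, since NT-3N replicate 3 lay between the Control arrays. Its log2 fold change was 0.25 (95% interval -0.28 to 0.79; limma adjusted p = 0.75), and it was 0.01 with Control replicate 2 left out and 0.50 with Control replicate 1 left out. Nos2 is known to be induced by interferons. The 9 tested interferon response genes summed to 139 and 185 units in Control and to 150, 52.7 and 83.8 units in NT-3N. Of their log2 fold changes, 3 were positive and 6 negative. In limma, 1 was higher and 3 were lower at an unadjusted p under 0.05, beside 4.95% and 4.67% of all features. Their part in the values of Nos2 was not tested.

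Duoxa2, the maturation factor of Duox2, had a log2 signal of 9.82 and 9.73 in Control and of 9.42, 9.94 and 9.15 in NT-3N. The range of Duoxa2 over the arrays was 0.80, exceeded by 25.1% of features. Its log2 fold change was -0.27 (95% interval -0.82 to 0.28; limma adjusted p = 0.74), and it was -0.49 without NT-3N replicate 2 and -0.09 without NT-3N replicate 3. Duox1 and Duoxa1, the other dual oxidase with its own maturation factor, were dim, with log2 signals between 5.03 and 5.22 for Duox1 and between 4.73 and 5.59 for Duoxa1, and log2 fold changes of 0.12 and 0.32 with limma adjusted p of 0.87 and 0.75.

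Read as a set, limma called 0 of the 8 measured genes at an adjusted p under 0.05, beside 0.125% of all features called higher and 0.0182% called lower. At an unadjusted p under 0.05, 2 genes, Reg3b and Reg3g, were higher and 0 were lower, beside 4.95% and 4.67% of all features. Both were also at least 2-fold higher, beside 0.793% of all features, while 0 were at least 2-fold lower, beside 0.51%. Without overlap between the groups' arrays, 2 were higher, Reg3b and Reg3g, and 1 lower, Lypd8, beside 13.5% and 14.8% of all features. The local-pooled-error test that the study's methods name, rebuilt here from its published description, called 4 of the 8, with Reg3b and Reg3g higher and Ang4 and Retnlb lower, beside 0.583% of all features called higher and 0.474% called lower by that test. In simulated data of the same size, 54.3% of the calls of that test were false, against 4.19% for limma. The simulated spreads were drawn from limma's own fitted model, with 200 changed features per run. Both shares depend on that setting, so they do not rate the calls of either test here. Of the 8 log2 fold changes 4 were positive and 4 negative, and their median was 0.06, beside a median of -0.02 over all features. The genes were chosen with earlier results of these data known, so these counts are not independent of that choice.

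**Figure D4:**
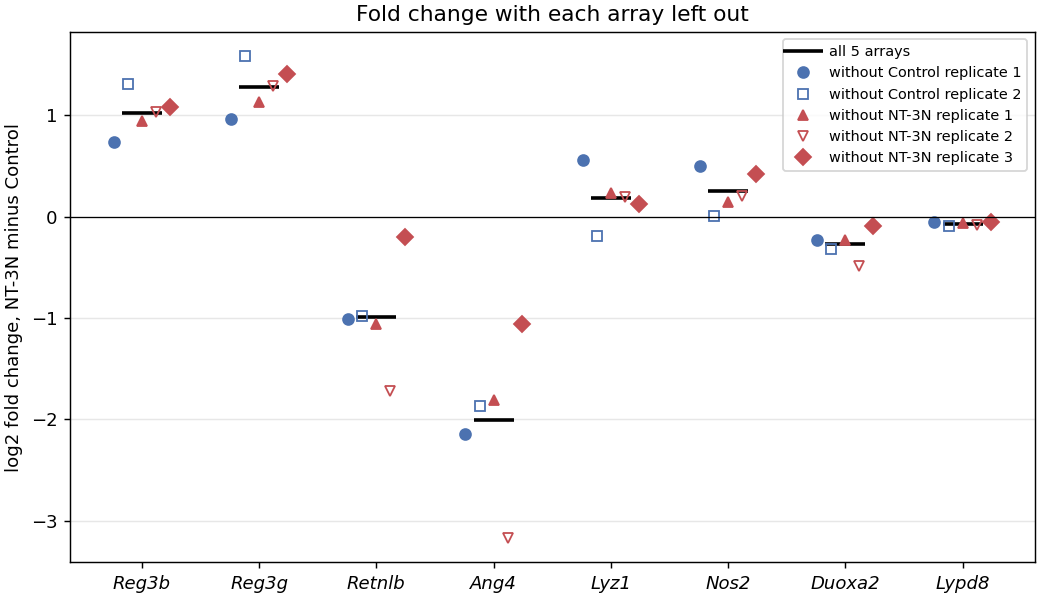
Log2 fold change of each measured gene, NT-3N minus Control, with all 5 arrays (black bars) and with each array left out in turn (symbols). Reg3b and Reg3g stay between 0.74 and 1.58, Ang4 runs from -3.17 to -1.06, and Lyz1 crosses 0.

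Among 34 other antimicrobial and barrier genes, 31 were tested, and limma called 0 at an adjusted p under 0.05. Of the 31, S100a9, S100a8 and Defb1 were well above background on 0 of 2 Control arrays and so entered the test only through the NT-3N arrays. Of the other 28, 11 had a positive and 17 a negative log2 fold change, with a median of -0.12. Of these 28, 3 were higher and 0 lower at an unadjusted p under 0.05, beside 4.95% and 4.67% of all features. Pla2g5 and Lcn2 were the 2 that were also at least 2-fold higher, beside 0.793% of all features.

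Pla2g5, a secreted phospholipase related to Pla2g2a, had a log2 signal of 10.46 and 10.04 in Control and of 11.56, 12.50 and 12.29 in NT-3N. All 3 NT-3N arrays lay above Control, and the log2 fold change was 1.87 (limma adjusted p = 0.11). It passed the threshold without NT-3N replicate 1 (limma adjusted p = 0.020) and with array weights (0.024), and its highest limma value among the alternatives was 0.60.

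S100a9 and S100a8, the subunits of calprotectin that neutrophils carry, were well above background on all 3 NT-3N arrays. Set against the lowest signal of any probe well above background, they were 13.9-fold and 3.61-fold higher there. Some brighter probes were not well above background either, so these folds are not lower limits. The limma adjusted p was 0.062 for S100a9 and 0.22 for S100a8. Without NT-3N replicate 1 the folds were 8.46 and 2.56. With the normexp background correction, which adds an offset to every signal, the fitted log2 fold changes were 1.72 and 0.68. For S100a9 the limma adjusted p ran from 0.016 with array weights to 0.49 under a replicate block. Both genes entered the test only through the NT-3N arrays and had Control signals not well above background. Their p-values are therefore no support for a difference. Defb1, a beta-defensin, was well above background on 2 of 3 NT-3N arrays, so no fold is given.

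Lcn2, a siderophore-binding protein of epithelium and neutrophils, had a log2 signal of 7.77 and 8.06 in Control and of 9.41, 8.77 and 8.66 in NT-3N. Its NT-3N arrays had the order of Reg3b and Reg3g, with replicate 1 highest and replicate 3 lowest, and its log2 fold change was 1.03 (limma adjusted p = 0.27). It fell short of 2-fold without Control replicate 1 (0.89), without NT-3N replicate 1 (0.80), with normexp (0.90) and with array weights (0.89). With the local-pooled-error test it was 0.85, while another Lcn2 probe gave 1.94. That other probe, tested on its own, had a limma adjusted p of 0.058, the lowest among the alternatives. For the probe described above, the limma adjusted p was 0.61 under a replicate block. The summed signal of the 7 tested neutrophil markers was 78.1 and 77.1 units in Control and between 64.2 and 77.6 units in NT-3N. Most of it came from Csf3r, so the sum mainly follows that gene. Of the 7, 5 had a positive and 2 a negative log2 fold change, with a median of 0.50, and 4 were not well above background on every array. The 8 macrophage markers summed to 13.5 and 13 units in Control and to between 11.2 and 15.6 units in NT-3N. The neutrophil markers share S100a8, S100a9, Camp and Ltf with the antimicrobial list. Of them, 2 were higher and 1 lower at an unadjusted p under 0.05, beside 4.95% and 4.67% of all features. The 2 higher ones were S100a8 and S100a9, which entered the test only through the NT-3N arrays. Limma called 0 neutrophil markers at an adjusted p under 0.05. The part of neutrophils in these values was not tested.

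The other genes of the oxidase and nitric oxide system, such as the NADPH oxidase subunits, gave no gene to name. Of 22, 19 were tested and limma called 0 at an adjusted p under 0.05. With an unadjusted p under 0.05, 2 were higher and 0 lower, beside 4.95% and 4.67% of all features, and 0 of them were 2-fold. Their log2 fold changes ran from -0.97 to 0.43 with a median of 0.06.

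Of 29 cytokine and sensing genes known to act upstream of the set, 24 were tested. Limma called 1 as higher at an adjusted p under 0.05, beside 0.125% of all features called higher. At an unadjusted p under 0.05, 7 were higher and 1 lower, beside 4.95% and 4.67% of all features. The median log2 fold change was 0.14. The called gene was Stat3, with a log2 signal of 12.84 and 12.80 in Control and of 13.61, 13.58 and 13.48 in NT-3N. It rose by 0.74 on the log2 scale (limma adjusted p = 0.043). The call was lost without Control replicate 1, Control replicate 2, NT-3N replicate 2 or NT-3N replicate 3, where the log2 fold change stayed between 0.71 and 0.78 and the limma adjusted p was 0.16 to 0.20, in a range from 0.015 to 0.49 over the limma alternatives. Il18, an epithelial cytokine, was the one gene of this list past 2-fold, with 12.48 and 11.82 in Control and 13.05, 13.46 and 13.41 in NT-3N, a log2 fold change of 1.15 (limma adjusted p = 0.18), which was 0.82 without Control replicate 2.

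**Figure D5:**
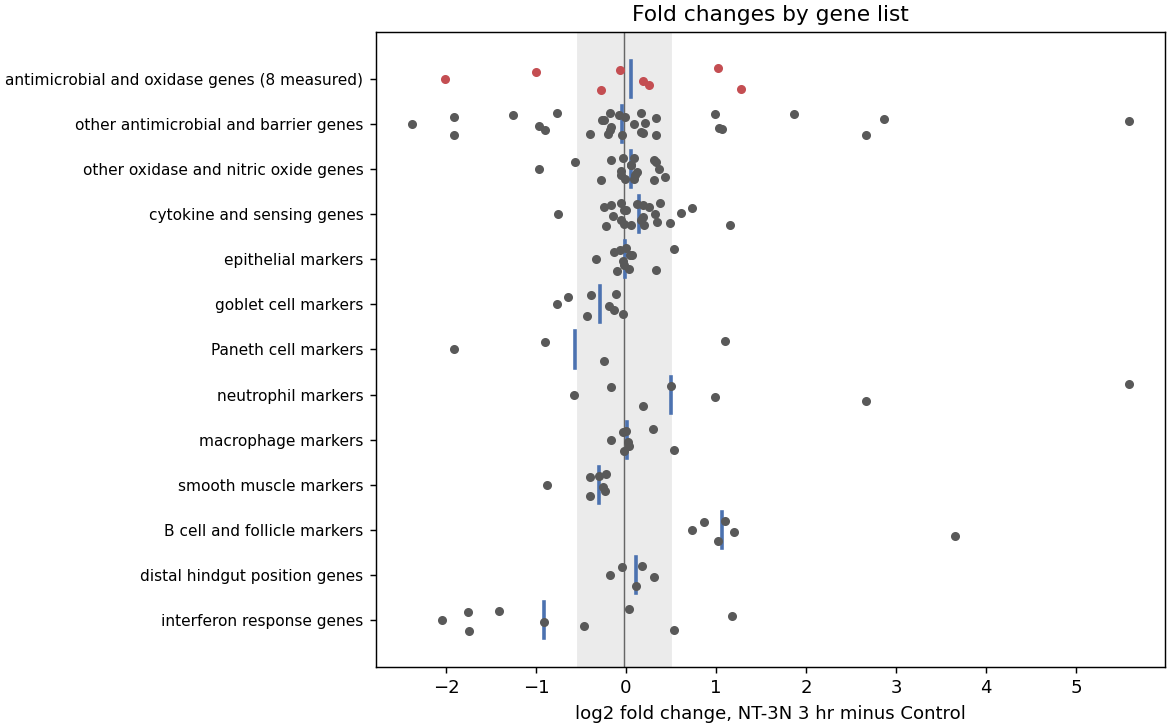
Fitted log2 fold change of each tested gene, NT-3N minus Control, by list; blue bars are list medians, the grey band spans the 5th to 95th percentile of all 32917 features and the grey line is their median of -0.02. The antimicrobial and oxidase genes, in red, lie on both sides of 0, from -2.01 for Ang4 to 1.27 for Reg3g; the points of S100a9, S100a8 and Defb1 rest on Control signals not well above background.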

How the data were processed

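The authors extracted spot intensities with Agilent software, Feature Extraction version 11.0.1.1; per spot, the deposited files hold a background-subtracted, detrended intensity that was not scaled between arrays. The authors also deposited log2 values of 37380 probes, quantile-normalized; they correlated at 0.99998 or more with the values computed here and served as an alternative. From the scanner files, outlier spots and control spots were left out, the signal was log2-transformed, spots of a probe were averaged and quantile normalization followed. Probes were kept if well above background on at least 2 arrays, and the brightest probe stood for a gene. Accessions were matched to RefSeq symbols (GRCm38.p6), naming 32994 of 56605 probes; the array design refers to another build, so only promoter windows carry coordinates.

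The test was limma 3.58.1 under R 4.3.3 (intensity trend, two-sided, Benjamini-Hochberg adjustment over all 32917 features), which moderates each feature's spread by that of all features, where the study's local-pooled-error test, an alternative here, replaces it by a pooled one; limma was checked on simulated data, where it recovered 33.2% of 2-fold and 69.4% of 4-fold changes. The methods of the study give 3 injected mice, which is also the number of NT-3N arrays. For the 2 untreated samples, no source states that each came from its own mouse. The p-values measure the spread between these samples, whose number limits the precision. Promoter windows were aligned with Biopython 1.88.

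The genes and lists were chosen with earlier results of these data known. All measured genes of the set are named; from the antimicrobial, oxidase and cytokine lists, genes past an adjusted p of 0.05 or past 2-fold with an unadjusted p under 0.05; close relatives; at most 2 of the brightest genes of a marker list; and the 3 genes most like Ang4.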

Additional observations from a re-analysis of the deposited data

How the results depend on the processing

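Each of the 8 genes was followed through 18 alternatives, none of which was added after seeing the data. Besides the left-out arrays these were the scaling, normexp on spot medians, the deposited log2 values, the filter, the variance model, array weights, the replicate block, the rule for several probes and the test. At an adjusted p under 0.05 the local-pooled-error test gave 2 genes higher and 2 lower in place of 0 and 0, and with each array left out in turn limma gave between 0 and 1 higher, the latter without Control replicate 2, and 0 lower. With 2-fold and an unadjusted p under 0.05, the 2 higher genes became 1 with array weights, 0 when Control replicate 1 was left out and 1 when NT-3N replicate 1 was, in a range from 0 to 2, and the 0 lower genes became 1 with the local-pooled-error test and 2 when NT-3N replicate 2 was left out, a range from 0 to 2 over the left-out arrays. The cause was not tested. Among the 8 genes, Lyz1 was the one whose log2 fold change took both signs, -0.19 with Control replicate 2 left out and 0.56 with Control replicate 1 left out. The mice share only a number: same-numbered arrays deviated from their group means with a correlation of 0.128 and 0.0357. Under a replicate block, 0 genes of the set were called higher and 0 lower, as without it, and Reg3b and Reg3g had log2 fold changes of 1.08 and 1.41. A lone Control array takes its spread from NT-3N. Stat3, called with all arrays, had a log2 fold change of 0.77 and a limma adjusted p of 0.49 with the block, and missed the threshold also without the filter on dim probes, without the intensity trend and with the mean of its probes (0.11, 0.18 and 0.057).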
